A study of Mus musculus with 16 samples.

Results

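Peribronchial fibroblasts are described here, the smallest of 3 fibroblast types annotated in a single-cell RNA sequencing experiment on mouse lung. The members were taken by the cell type label of the authors' deposited cell table, which names 1022 of 80449 cells (1.27%) as this type. They made up 5.17% of the cells of the 3 fibroblast types, beside 14592 alveolar and 4157 adventitial fibroblasts, and the table holds another 667 cells as smooth muscle cells and pericytes.

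Peribronchial fibroblasts are mesenchymal cells that lie around the conducting airways, close to airway smooth muscle and epithelium. They are known from Hhip, a membrane protein that binds hedgehog ligands and dampens their signal, from Aspn, a small leucine-rich proteoglycan of the matrix, and from Lgr6, a receptor for the R-spondins that strengthen Wnt signals. Airway epithelium is a known source of hedgehog ligands in the lung, and the stroma beneath it is where the receptor Ptch1 and the Gli transcription factors act. Sympathetic fibres follow airways and vessels and release noradrenaline and neuropeptide Y.

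Whole-lung suspensions came from mice given vehicle, 6-OHDA or BIBO3304, each with and without PDAC cells (pancreatic ductal adenocarcinoma) seeded in the lung. The toxin 6-OHDA enters the endings of catecholaminergic nerves and is used to remove sympathetic fibres, and BIBO3304 blocks the neuropeptide Y receptor Y1. The question named by the series' title is whether sympathetic neurons limit the seeding of pancreatic cancer cells in the lung through that receptor. Each of the 3 treatments had 3 samples without PDAC cells and 2 with them, 15 in all. The deposited table writes IV for the seeded state, which was read as PDAC cells given. The sources used here do not give strain, genotype, age, dose or time, and nothing says whether each sample was 1 mouse. All p-values therefore measure only the spread between these samples, which may be technical.

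The promoters of the 3 genes that mark the type, and of Pdlim1, which was the 1 gene to pass edgeR's test of a treatment within it, are shown because the values below turn on these genes. Each is the 250 bases before the annotated start, from RefSeq on build GRCm38.p6, on the strand of the gene and read 5′ to 3′, with letters that match a searched motif in capitals. The files' own build is mm39, so these coordinates do not apply to it. Hhip lies on the minus strand at chr8:80058009-80058258, Aspn on the plus strand at chr13:49544193-49544442, Lgr6 on the minus strand at chr1:135105277-135105526, and Pdlim1 on the minus strand at chr19:40271617-40271866.
Hhip: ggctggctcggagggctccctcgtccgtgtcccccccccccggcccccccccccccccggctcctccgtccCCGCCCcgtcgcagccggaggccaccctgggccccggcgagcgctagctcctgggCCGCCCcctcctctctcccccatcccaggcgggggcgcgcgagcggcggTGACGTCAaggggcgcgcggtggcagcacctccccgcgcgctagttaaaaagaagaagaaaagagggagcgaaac
Aspn: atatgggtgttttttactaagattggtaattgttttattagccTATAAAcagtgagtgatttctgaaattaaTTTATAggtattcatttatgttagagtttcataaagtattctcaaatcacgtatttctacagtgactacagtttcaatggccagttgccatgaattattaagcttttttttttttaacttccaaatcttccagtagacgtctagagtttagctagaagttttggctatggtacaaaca
Lgr6: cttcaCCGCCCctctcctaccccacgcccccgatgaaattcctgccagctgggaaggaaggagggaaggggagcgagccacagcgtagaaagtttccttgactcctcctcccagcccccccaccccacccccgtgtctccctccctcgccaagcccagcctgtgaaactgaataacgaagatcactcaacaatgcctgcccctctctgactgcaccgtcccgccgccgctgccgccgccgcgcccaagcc
Pdlim1: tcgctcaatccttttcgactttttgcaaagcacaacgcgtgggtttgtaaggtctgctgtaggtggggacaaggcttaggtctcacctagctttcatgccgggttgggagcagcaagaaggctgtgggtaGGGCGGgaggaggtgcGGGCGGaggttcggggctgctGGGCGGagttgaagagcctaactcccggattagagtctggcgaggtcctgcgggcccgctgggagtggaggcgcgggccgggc
The motifs, searched on both strands, were the cyclic AMP response element TGACGTCA, the Gli site GACCACCCA, the E-box CACGTG, the AP-1 site TGACTCA, the TATA box TATAAA and the GC box GGGCGG. The Hhip window was 76.0% G and C and held the cyclic AMP response element 75 bases before the start, a motif found in 1.55% of 32851 promoter windows of the same length, and GC boxes at 179 and 124 bases. The Aspn window was 30.0% G and C against a median of 52.4% over all windows, and held the TATA box letters 207 and 178 bases before the start. Lgr6 (65.2% G and C) had 1 GC box, 245 bases before the start, and Pdlim1 (62.4%) had 3, at 120, 104 and 83 bases. Of the 25 genes that led the type (below), 17 had a window, Hhip and Aspn among them. The Gli site, the E-box and the AP-1 site were in 0 of these 17 windows, against 0.225%, 6.02% and 4.46% of all windows. The TATA box was in 2 of them, Aspn and Cyp2e1 (all windows 12.4%), and the GC box in 8, Hhip included (all windows 32.7%). A match describes letters only.

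The number of peribronchial fibroblasts per sample was 121, 43 and 77 under vehicle, 34, 50 and 46 under 6-OHDA, and 63, 80 and 99 under BIBO3304. With PDAC cells it was 80 and 94 under vehicle, 44 and 72 under 6-OHDA, and 71 and 48 under BIBO3304. Their counts summed to 53648 to 454909 transcripts per sample, from whole-sample totals of 10003796 to 32580698, with medians of 1679 transcripts and 775.5 genes per cell. Depth per cell was highest under BIBO3304 without PDAC cells. There the median number of transcripts per peribronchial fibroblast was 2018, 4945.5 and 3164, against 1109, 1079 and 1343 under vehicle, with no overlap. It was 1064.5 to 1958.5 in the other 9 samples. With PDAC cells BIBO3304 was not deeper, at 1819 and 1064.5 against 1958.5 and 1458 under vehicle. Annotated cancer cells numbered 56 and 0 in the 2 vehicle samples with PDAC cells, 75 and 71 with 6-OHDA, and 33 and 73 with BIBO3304. The 0 was in the library labelled vehicle-PDAC 2. Without PDAC cells the 3 vehicle samples held 2, 1 and 1 cells with that annotation, and the 6-OHDA and BIBO3304 samples held 0. No cell barcode was shared between samples.

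The genes known from this type were high in the labelled cells. Hhip averaged 3663 ± 1243 CPM (a gene's count relative to the total count of the type in that sample; SD, n = 15 samples), from 1940 to 6033, while the type with the next highest level, adventitial fibroblasts, averaged 62.1 CPM. Aspn averaged 540 ± 187 CPM, from 303 to 1031, and smooth muscle cells and pericytes came next with 71.4 CPM. Lgr6 averaged 310 ± 116 CPM, from 74.6 to 482, and was less particular, since club cells held 204 CPM and smooth muscle cells and pericytes 183. The club cell mean rests on 2 samples with at least 20 such cells. In each of the 15 samples Hhip was higher here than in any of the other 3 mesenchymal types. How the label was assigned is not given in the sources used here, and these genes may have entered it, so the levels describe the labelled cells and are no test of the label.

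**Figure D1:**
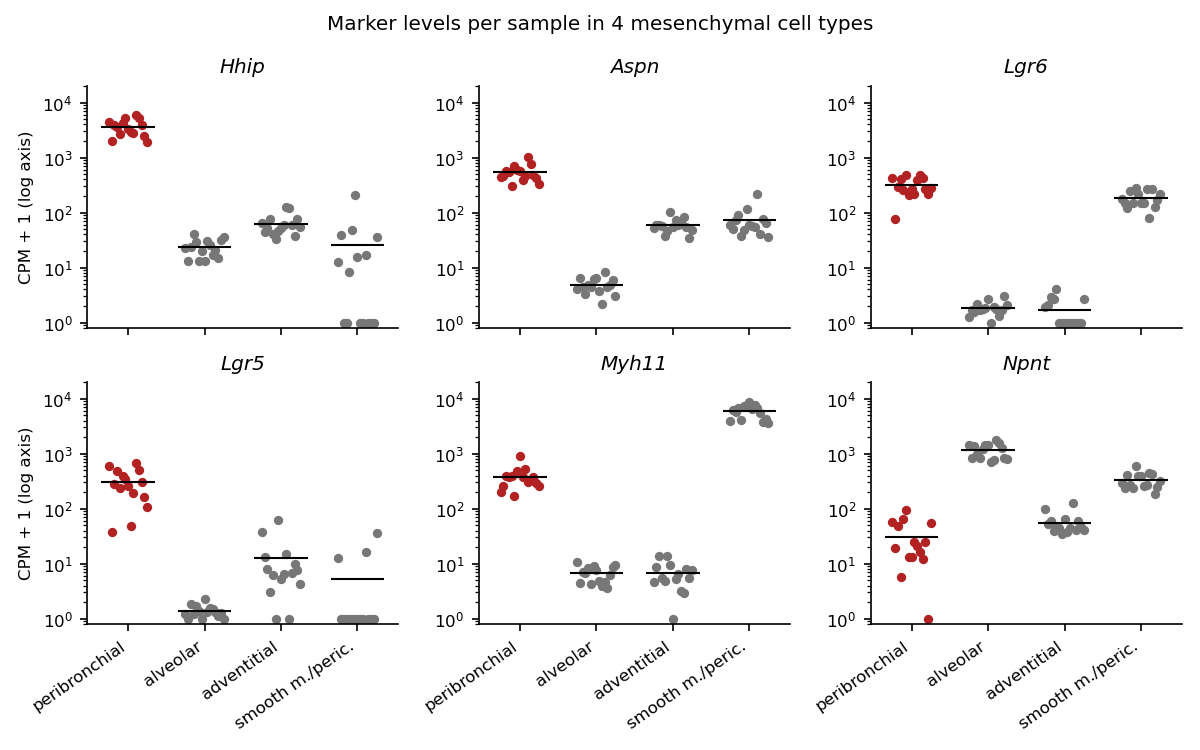
Level of 6 genes in the 4 mesenchymal types; each point is 1 of 15 samples (CPM + 1, log axis) and each line is the mean. Hhip, Aspn and Lgr5 are highest in peribronchial fibroblasts, Lgr6 is shared with smooth muscle cells and pericytes, the smooth muscle gene Myh11 is at an intermediate level, and the alveolar fibroblast gene Npnt is low.

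Cell by cell, Hhip was detected in 86.0% of the 758 cells that could be thinned to 1000 transcripts (264 shallower cells left out), and in 87.3% of all 1022 unthinned. The thinned share was 2.06% in alveolar fibroblasts, 4.85% in adventitial fibroblasts, 1% in smooth muscle cells and pericytes, and 0.291% in alveolar macrophages, which should lack the gene. Aspn was seen in 32.1% of thinned cells (43.8% unthinned) and Lgr6 in 24.8% (36.2% unthinned). Median depth was 1679 transcripts in this type and 2932 in alveolar macrophages. At least 1 of Hhip, Aspn and Lgr6 was found in all but 89 cells. Those 89 were also the shallowest, with a median of 902 transcripts, against 1309, 1869 and 3425.5 in the 354, 381 and 198 cells with 1, 2 and 3 of the genes.

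Markers of other cells were present at lower levels. At least 2 adventitial fibroblast markers were detected in 299 cells (29.3%), at least 2 smooth muscle markers in 290 (28.4%), at least 2 alveolar fibroblast markers in 212 (20.7%) and at least 2 alveolar macrophage markers in 110 (10.8%). No doublet caller was run here. The macrophage chitinase-like gene Chil3 was seen in 8.05% of thinned peribronchial fibroblasts, 11.1% of alveolar fibroblasts, 10.3% of adventitial fibroblasts, 16.8% of smooth muscle cells and pericytes and 70.3% of alveolar macrophages. The share in peribronchial fibroblasts was the lowest of these 5 types. Markers of PDAC cells were the lowest of all 22 types here, with 2 of 6 at 0.

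The 25 genes at 20 CPM or more with the highest ratio to the next type included Hhip and Aspn. Lgr5, a relative of Lgr6 that also binds R-spondins, averaged 309 ± 194 CPM against 11.5 in adventitial fibroblasts. Cdh4, a cadherin, averaged 2053 ± 804 CPM and the next type held 97.3. P4ha3, a subunit of the prolyl hydroxylase that modifies collagen, was at 152 CPM against 5.34, and Enpp2, which makes lysophosphatidic acid, at 970.5 CPM against 85.9. Grik4, a kainate receptor subunit, stood at 512 CPM against 29.1, and Kctd16, an auxiliary subunit of GABA-B receptors, at 1181 against 77.7. Pde10a, a phosphodiesterase that breaks down cyclic AMP and cyclic GMP, averaged 2275 ± 1369 CPM against 218 in the next type, and its spread over samples is taken up below.

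The smooth muscle programme was present in part. Myocd, the coactivator that drives smooth muscle genes, averaged 852 ± 231 CPM, next to 863 in smooth muscle cells and pericytes, and only 1.8 in alveolar and 3.12 in adventitial fibroblasts. Its classical targets were far lower than in muscle: Myh11, the smooth muscle myosin heavy chain, was at 379 CPM against 5923, and Acta2, smooth muscle actin, at 93.1 against 1268. In both genes the peribronchial level was the second highest of 22 types. Across 5345 genes, mean log2 levels correlated with those of adventitial fibroblasts at Pearson's r = 0.761, of smooth muscle cells and pericytes at 0.738 and of alveolar fibroblasts at 0.727. These are values across genes of the same libraries, which are not independent replicates.

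In the hedgehog pathway, Hhip and Gli2 ranked high among the types, and Ptch1 and Gli1 were below adventitial fibroblasts. Ptch1, the receptor that is itself a target of the pathway, averaged 61.9 CPM, ranked 8 of 22 types and was below the 179 CPM of adventitial fibroblasts. Gli2, a transcription factor of the pathway, averaged 207 CPM, second to the 232 CPM of mesothelial cells, while the target Gli1 averaged 23.2 CPM against 68.8 in adventitial fibroblasts. Among Wnt genes the receptors Lgr5 and Lgr6 led, and the ligand Wnt5a (137 CPM; next type 43.7) and its receptor Ror2 (220.2 CPM; next type 125) were highest in this type. Bmp5, a bone morphogenetic protein ligand, averaged 899.5 CPM against 367 in alveolar fibroblasts, the next type. Fgf18, a growth factor of lung mesenchyme, averaged 97.7 CPM against 41.5 in alveolar type 1 cells, whose mean rests on 2 samples with at least 20 such cells.

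Some of the genes that receive or clear the signals under study were scarce. Npy1r, the target of BIBO3304, gave 1 transcript over all 1022 cells, Adrb1 gave 3 and the noradrenaline transporter Slc6a2 gave 4, and none of them could be tested. Adra1a, an alpha-1 adrenergic receptor, averaged 93.4 CPM, second to the 429 CPM of alveolar fibroblasts. Pde4b, which degrades cyclic AMP, averaged 2194 CPM and was the highest of all types, with neutrophils next at 1901.

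The share of peribronchial fibroblasts among all cells was 1.51%, 0.683% and 1.02% under vehicle, 0.858%, 1.21% and 1.31% under 6-OHDA, and 1.52%, 2.06% and 1.88% under BIBO3304. The 3 BIBO3304 samples were all above the 3 vehicle samples, though the closest pair differed only in 1.52% against 1.51%, with means of 1.82% ± 0.273 and 1.07% ± 0.416 (SD, n = 3). The exact two-sided permutation p was 0.1, the smallest that 3 against 3 samples can give, and the fitted log2 difference was 0.48 ± 0.346 (SE, adjusted p = 0.401 over 22 types, edgeR). Alveolar macrophages made up 35.5 to 42.5% of cells under vehicle and 16.1 to 19.9% under BIBO3304, so the denominator moved too. Without alveolar macrophages in the denominator the fitted log2 difference was 0.33 (adjusted p = 0.519, edgeR). Among the 3 fibroblast types alone, the share was 4.58% ± 1.31 under vehicle and 6.47% ± 1.11 under BIBO3304, with an exact permutation p of 0.2.

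For the other comparisons of the share, no difference passed either. With PDAC cells it was 1.17% and 1.03% under vehicle, 1.11% and 2.06% under 6-OHDA, and 1.30% and 1.01% under BIBO3304. The fitted log2 differences from vehicle were 0.70 ± 0.429 for 6-OHDA (adjusted p = 0.245, edgeR) and 0.27 ± 0.427 for BIBO3304 (adjusted p = 0.798, edgeR), and 2 against 2 samples cannot give an exact permutation p under 0.3333. Without PDAC cells 6-OHDA gave -0.18 ± 0.355 (adjusted p = 0.721, edgeR), and PDAC cells against none under vehicle gave -0.13 ± 0.386 (adjusted p = 0.905, edgeR). All treatments are compared with the same vehicle samples.

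**Figure D2:**
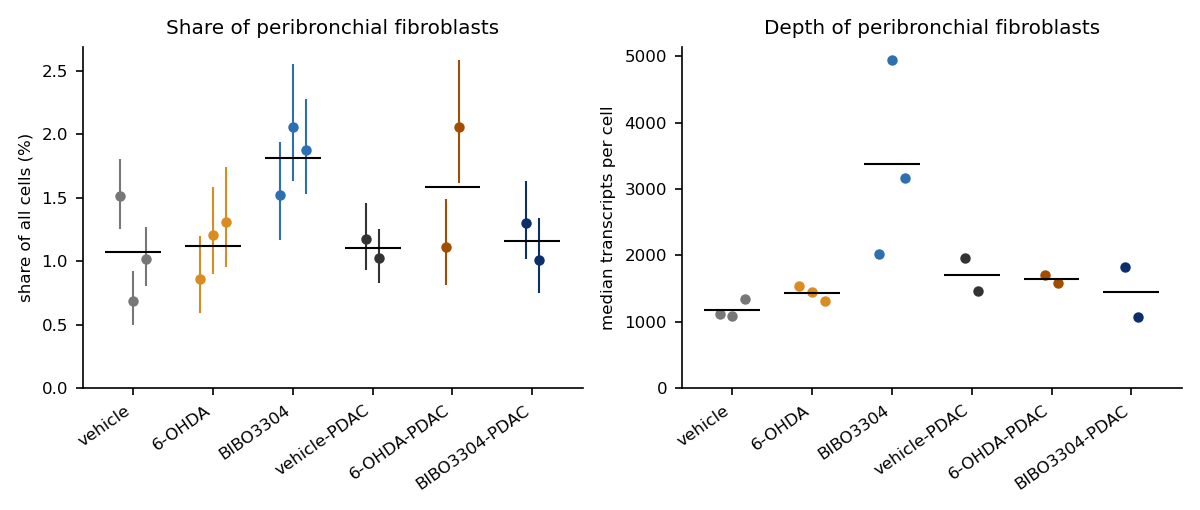
Share of peribronchial fibroblasts among all cells (left, %, points are samples with 95% exact binomial intervals for counting error, lines are group means) and median transcripts per peribronchial fibroblast (right), by group. The 3 BIBO3304 samples without PDAC cells have the highest mean share and the highest depth, 2018 to 4945.5 transcripts per cell.

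For the tests of genes, counts were summed per sample and fitted over all 15 samples with edgeR's quasi-likelihood test on 3592 genes. Levels of single samples in the tests within the type are CPM relative to the summed count of these 3592 genes, scaled by TMM. Means over all samples, marker sums and the comparison with other fibroblast types keep the total count as defined above. Differences are log2 fold changes with their SE. In simulated counts the test recovered 25% of 2-fold and 76% of 4-fold changes for BIBO3304 without PDAC cells, and 8.4% and 61.2% for BIBO3304 with them, so most 2-fold changes would be missed in these 2 comparisons.

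BIBO3304 against vehicle without PDAC cells gave 0 genes at an adjusted p under 0.05 (0% of genes tested, edgeR), with 314 at an unadjusted p under 0.05, of which 137 were higher and 177 lower. DESeq2 called 1 gene, Pde10a. Pde10a was at 1871, 1604 and 2124 CPM in the vehicle samples and 3795, 4651 and 4670 CPM in the BIBO3304 samples. The groups did not overlap, and the log2 fold change was 1.22 ± 0.264 (edgeR adjusted p = 0.0518; DESeq2 adjusted p = 0.0244). Nkain2, which encodes a protein that interacts with the sodium-potassium pump, was at 29.2, 22.3 and 8.2 CPM under vehicle and 218, 102 and 104 CPM under BIBO3304, again without overlap (2.69 ± 0.546, edgeR adjusted p = 0.0518). Its vehicle values rest on 7 transcripts over the 3 samples, against 116 under BIBO3304, where the cells were deeper. B3galt1, a galactosyltransferase, was at 170, 156 and 98.4 against 317, 349 and 308 CPM (1.20 ± 0.308, edgeR adjusted p = 0.119). Mtus1 was at 111, 44.5 and 73.8 against 234, 262 and 193 CPM (1.42 ± 0.339, edgeR adjusted p = 0.109). For all 4 genes every BIBO3304 sample was above every vehicle sample.

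Of the 5 lower genes named for this comparison, Mrc1 and Mpeg1 are best known from macrophages. Mrc1, the macrophage mannose receptor, was at 181, 178 and 189 CPM under vehicle and 41.5, 22.2 and 74.1 CPM under BIBO3304 (-2.04 ± 0.436, edgeR adjusted p = 0.0518). Mpeg1, a pore-forming protein of macrophages, was at 93.6, 134 and 98.4 against 26.0, 11.1 and 29.6 CPM (-2.28, edgeR adjusted p = 0.109), and the cytokine Il18 at 64.3, 22.3 and 65.6 against 5.19, 4.44 and 3.71 CPM (-3.45, edgeR adjusted p = 0.119). Over all samples Mrc1 averaged 101 CPM here, 94.5 in alveolar fibroblasts and 76.2 in adventitial fibroblasts, against 2410 in alveolar macrophages. The summed level of 10 alveolar macrophage markers within peribronchial fibroblasts was 410 to 575 CPM under vehicle and 79.1 to 155 CPM under BIBO3304, with none of the 10 at 0 over all samples, and that of 6 alveolar type 2 markers was 260.1 to 336 against 52.8 to 233 CPM. The part of such RNA in these differences was not tested. Jund, a subunit of AP-1, was at 1152, 1492 and 1074 against 581, 346 and 675 CPM (-1.20 ± 0.288, edgeR adjusted p = 0.109), and Il6ra, a subunit of the interleukin 6 receptor, at 170, 156 and 123 against 46.7, 44.4 and 66.7 CPM (-1.50 ± 0.389, edgeR adjusted p = 0.119).

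Of the gene lists, 0 members passed in either direction for BIBO3304 without PDAC cells, where the background was 0%, so the lists are given by their medians, beside a median of 0.00 and 50.2% positive values over all genes. Ribosomal protein genes had a median of -1.02, with 50 of 51 negative and 30 lower at an unadjusted p under 0.05, and the 7 mitochondrially encoded genes a median of -0.73, all negative. These were lower in the samples with the deepest cells, and the part of depth was not tested. Among FGF genes 6 of 7 were positive, with a median of 0.64. The ligand Fgf2 was at 87.7, 89.1 and 90.2 CPM under vehicle and 187, 162 and 189 CPM under BIBO3304 (0.998, unadjusted p = 0.015), and Fgf18 at 76.0, 22.3 and 164 against 161, 158 and 237 CPM, which overlap (0.90). Of the genes known from the type, which may have entered its label and are given with no test, Hhip was at 4678, 2383 and 4076 against 6043, 5392 and 4877 CPM (0.54) and Aspn at 468, 557 and 599 against 1033, 775 and 608 CPM (0.58), while Mustn1 was negative (-0.85). The 15 collagen genes tested had a median of 0.22, with 11 positive, among them the fibril regulator Col5a1 (0.65) and Col14a1 (0.81).

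**Figure D3:**
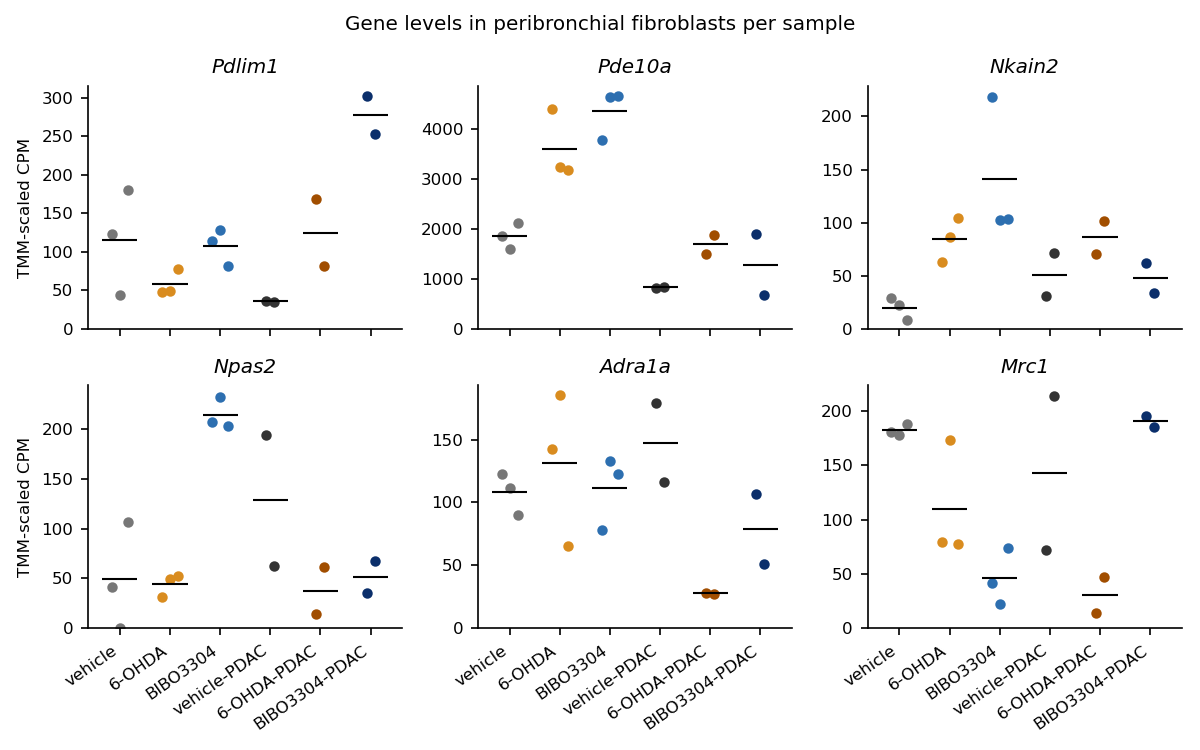
TMM-scaled CPM of 6 genes in peribronchial fibroblasts, 1 point per sample and a line at the group mean. Pdlim1 is highest in the 2 samples with BIBO3304 and PDAC cells (302 and 253 CPM), and Pde10a is above its vehicle samples in all 6 samples with 6-OHDA or BIBO3304 without PDAC cells and lowest in the vehicle samples with PDAC cells and 1 sample with BIBO3304 and PDAC cells.

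BIBO3304 against vehicle with PDAC cells gave Pdlim1, the 1 gene that edgeR called in any comparison within the type (0.0278% of genes tested; 185 genes at an unadjusted p under 0.05). DESeq2 called it here too. Pdlim1 encodes a PDZ and LIM domain protein that binds alpha-actinin on actin stress fibres. It was at 35.8 and 35.7 CPM in the vehicle samples with PDAC cells and rose to 302 and 253 CPM in the BIBO3304 samples with PDAC cells (2.94 ± 0.522, edgeR adjusted p = 0.00978; DESeq2 adjusted p = 0.0322). The samples without PDAC cells lay between, at 123, 44.5 and 180 CPM under vehicle and 114, 129 and 81.5 CPM under BIBO3304. The 2 vehicle samples with PDAC cells were thus lower than each vehicle sample without them (-1.83 ± 0.521, edgeR adjusted p = 0.65). These 2 samples are also the reference for 6-OHDA with PDAC cells. In Pdlim1 the interaction of 6-OHDA with PDAC cells was 2.79 ± 0.757 (edgeR adjusted p = 0.567). That of BIBO3304 was 3.19 ± 0.644 (edgeR adjusted p = 0.0754). The part of the low vehicle values in the change was not tested. The comparison has 4 libraries: the edgeR adjusted p was 0.379 without vehicle-PDAC 1, 0.0694 without vehicle-PDAC 2, 0.234 without BIBO3304-PDAC 1 and 0.0186 without BIBO3304-PDAC 2, with log2 fold changes of 2.76 to 3.07.

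The next genes of that comparison did not pass. Nr3c2, the mineralocorticoid receptor, was at 348 and 214 CPM under vehicle and 44.4 and 50.6 CPM under BIBO3304 (-2.60 ± 0.579, edgeR adjusted p = 0.142). Dgkb, a diacylglycerol kinase, was at 143 and 116 against 8.89 and 33.7 CPM (-2.83 ± 0.679, edgeR adjusted p = 0.145). Hspa5, the main chaperone of the endoplasmic reticulum, was at 481 and 446 CPM under vehicle and 1200 and 1417 CPM under BIBO3304 (1.48 ± 0.341, edgeR adjusted p = 0.142). In these 3 genes the 2 groups did not overlap, whereas for Rdh10, a retinol dehydrogenase, and Slc12a2, the sodium-potassium-chloride cotransporter, single samples stood out: Rdh10 was at 453 and 16.9 CPM and Slc12a2 at 44.4 and 523 CPM under BIBO3304. The heat shock list was positive in 11 of 12 genes with a median of 1.02, where all genes had a median of 0.01, and the 17 immediate early genes were all positive with a median of 0.25; 0 members of either passed. Hsph1, a co-chaperone of Hsp70, was at 5.12 and 8.92 against 53.3 and 152 CPM (3.67 ± 0.987, edgeR adjusted p = 0.382).

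6-OHDA against vehicle without PDAC cells gave 0 genes by edgeR (0% of genes tested; 187 at an unadjusted p under 0.05, 101 higher and 86 lower) and 0 by DESeq2. Pde10a was again higher, at 4400, 3240 and 3183 CPM, above all 3 vehicle samples given above (0.94 ± 0.266, edgeR adjusted p = 0.56). Gas7, a regulator of actin, was at 386, 445 and 451 CPM under vehicle and 158, 198 and 208 CPM under 6-OHDA (-1.16 ± 0.308, edgeR adjusted p = 0.46). Rap1a, a small GTPase of cell adhesion, was at 175, 178 and 189 against 47.5, 74.2 and 65.0 CPM (-1.51 ± 0.446, edgeR adjusted p = 0.62). Both genes were lower in each 6-OHDA sample. The secreted angiogenesis inhibitor Ism1 was at 497, 312 and 394 against 507, 1187 and 896 CPM (1.07 ± 0.277, edgeR adjusted p = 0.46), with 1 of 3 samples close to vehicle. Among the 14 contractile genes 10 were positive, with a median of 0.33 against 0.01 over all genes and 0 calls. Myh11 was at 216, 312 and 410 against 174, 507 and 1000 CPM, so the groups overlapped.

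Ccn1 and Nr4a1 were picked after their values were seen, and neither passed edgeR's test under 6-OHDA in either setting (adjusted p between 0.33 and 0.86). Ccn1, a secreted matricellular protein, was at 509, 423 and 484 CPM under vehicle and 839, 754 and 806 CPM under 6-OHDA without PDAC cells (0.74, unadjusted p = 0.0071), and at 461 and 411 against 746 and 957 CPM with them (0.97, unadjusted p = 0.0027). Each 6-OHDA sample of Ccn1 was above each vehicle sample of its setting. For the nuclear receptor Nr4a1 the 6-OHDA samples overlapped with vehicle without PDAC cells (766, 512 and 533 against 981, 742 and 1039 CPM) and not with them (537 and 598 against 1436 and 794 CPM). The list of BMP and TGF-beta genes, which holds Ccn1, had medians of -0.09 and 0.00 over 23 genes, beside 0.01 and -0.00 over all 3592 genes tested.

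6-OHDA against vehicle with PDAC cells gave 0 genes by edgeR (0% of genes tested; 211 at an unadjusted p under 0.05, 108 higher and 103 lower) and 0 by DESeq2. Adra1a was at 179 and 116 CPM under vehicle and 28.2 and 27.2 CPM under 6-OHDA (-2.43 ± 0.603, edgeR adjusted p = 0.187). In the samples without PDAC cells it was at 123, 111 and 90.2 CPM under vehicle and 142, 186 and 65.0 CPM under 6-OHDA, with overlap; the interaction was -2.69 ± 0.755 (edgeR adjusted p = 0.567). Prkca, protein kinase C alpha, was at 281 and 241 against 676 and 753 CPM (1.44 ± 0.325, edgeR adjusted p = 0.187). Hspa5, which did not pass here either, was at 1394 and 984 CPM (1.34 ± 0.339, edgeR adjusted p = 0.196), and 10 of 12 heat shock genes were positive with a median of 0.76. Because this comparison and that of BIBO3304 use the same 2 vehicle samples, a low vehicle value enters both. Lgr5 was at 527 and 330 CPM under vehicle, 56.3 and 197 under 6-OHDA (-1.62, unadjusted p = 0.0045) and 213 and 135 under BIBO3304 (-1.26, unadjusted p = 0.024), while Lgr6 was at 435 and 357, 253 and 387, and 293 and 354 CPM. Pde4b was at 3014 and 2410 CPM under vehicle, above the 1520 and 2152 CPM under 6-OHDA (-0.56, unadjusted p = 0.056) and the 1778 and 1822 CPM under BIBO3304 (-0.59, unadjusted p = 0.043).

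PDAC cells against none under vehicle gave 0 genes by edgeR (0% of genes tested; 141 at an unadjusted p under 0.05, 79 higher and 62 lower) and 0 by DESeq2. Hnrnpll, an RNA-binding splicing regulator, was at 70.2, 134 and 148 CPM without and 394 and 312 CPM with PDAC cells (1.68 ± 0.366, edgeR adjusted p = 0.217), without overlap. Pde10a was at 819 and 848 CPM with PDAC cells, under its 3 samples without them (-1.17 ± 0.311, edgeR adjusted p = 0.65). Itga9, an integrin subunit, was at 579, 624 and 754 against 368 and 277 CPM (-0.999 ± 0.285, edgeR adjusted p = 0.65). Of the clock repressor and output genes 7 of 8 were negative with a median of -1.02, against -0.01 over all genes, with 0 calls: the output factors Hlf (175, 89.1 and 180 against 71.6 and 62.5 CPM) and Tef (87.7, 111 and 49.2 against 10.2 and 35.7 CPM) were lower in both samples with PDAC cells. The sources used here do not give the times of tissue collection. Ror2, the Wnt5a receptor, was at 228, 290 and 443 CPM without and 123 and 152 CPM with PDAC cells (-1.24, unadjusted p = 0.0024), without overlap, while 14 of 15 collagen genes were positive with a median of 0.12. The vehicle-PDAC 2 library, which held 0 annotated cancer cells, had Il31ra at 34956 CPM, against 2429 to 16398 CPM in the other 14.

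Clock genes also differed in sign between the BIBO3304 comparisons. Npas2, a clock activator, was at 40.9, 0 and 107 CPM under vehicle and 208, 233 and 204 CPM under BIBO3304 without PDAC cells (1.87 ± 0.455, edgeR adjusted p = 0.109), and at 194 and 62.5 against 35.6 and 67.5 CPM with them (-1.52, unadjusted p = 0.029). The interaction of BIBO3304 with PDAC cells in Npas2 was -3.39 ± 0.799 (edgeR adjusted p = 0.151). All 5 clock activators had a positive change without PDAC cells (median 0.59), a negative one with them (median -0.78) and a negative interaction (median -1.45). The negative sign with PDAC cells was not particular to BIBO3304, since all 5 were also negative under 6-OHDA with PDAC cells (median -0.58). Without PDAC cells 4 of 5 were negative under 6-OHDA (median -0.45). PDAC cells against none under vehicle gave 4 of 5 positive (median 0.57). Both treatments with PDAC cells are compared with the same 2 vehicle samples, whose values enter each of these signs. No gene passed the interaction test by edgeR or DESeq2 for BIBO3304 (0%; 290 at an unadjusted p under 0.05) or for 6-OHDA (0%; 187). The smallest edgeR adjusted p was that of Pdlim1, with an interaction of 3.19 ± 0.644 (0.0754). Nr3c2 followed with -3.12 ± 0.685 (edgeR adjusted p = 0.0812): without PDAC cells it was at 234, 111 and 115 CPM under vehicle and 275, 198 and 248 CPM under BIBO3304, which overlap. Dgkb had -3.43 ± 0.746 (edgeR adjusted p = 0.0812), from 216, 134 and 139 against 270, 235 and 278 CPM without PDAC cells, where each BIBO3304 sample was the higher. Ribosomal protein genes, too, had opposite medians, -1.02 without and 0.42 with PDAC cells, and 49 of 51 had a positive interaction.

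**Figure D4:**
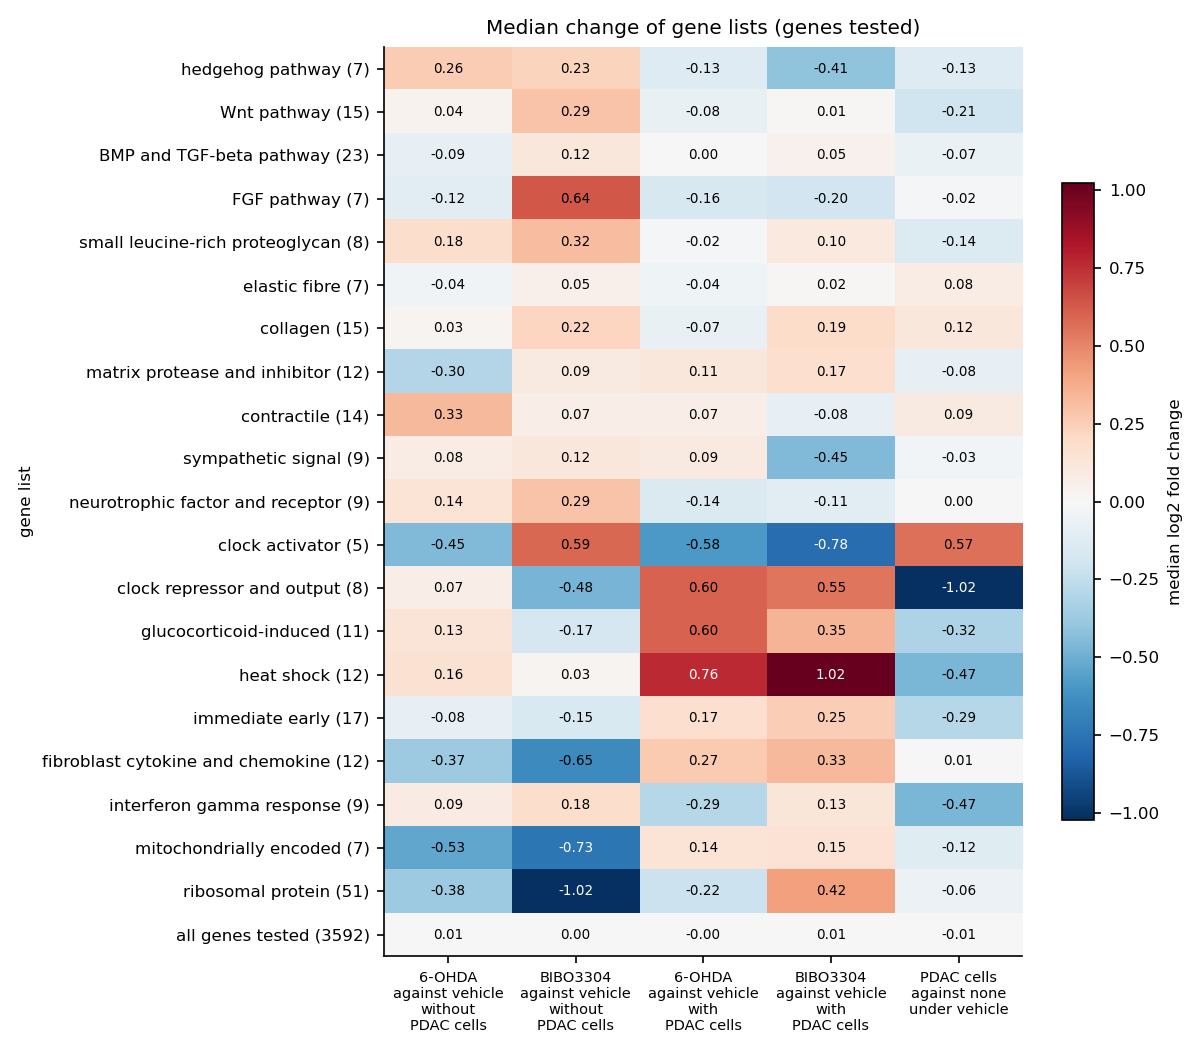
Median log2 fold change of each gene list (number of genes tested in brackets) in peribronchial fibroblasts for 5 comparisons; red is higher and blue lower in the first-named group. The ribosomal protein median of -1.02 under BIBO3304 without PDAC cells and the heat shock median of 1.02 under BIBO3304 with PDAC cells have the same size and opposite signs; no member of a list passed the test.

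Whether a treatment moved peribronchial fibroblasts differently from alveolar fibroblasts of the same samples was tested on 9890 genes as a difference between both types' log2 fold changes. Its p-values were those of a normal distribution at the ratio of difference to SE. The spread was thus in effect shared across genes, and a gene's own spread between samples counted little. A gene carried by 1 sample can therefore pass. For BIBO3304 without PDAC cells the difference passed in 26 genes (0.263% of genes tested, edgeR), of which 24 (0.243%) were more positive in peribronchial fibroblasts and 2 (0.0202%) more negative; 623 genes had an unadjusted p under 0.05. Pde10a was among the 24. In peribronchial fibroblasts it ran from 1342 to 2041 CPM under vehicle and from 3750 to 4605 CPM under BIBO3304, here relative to the total count and without TMM scaling. In alveolar fibroblasts it ran from 24.1 to 33.7 and from 29.7 to 35.4 CPM, which overlap, and the difference between the changes was 1.31 ± 0.273 (edgeR adjusted p = 0.00422). With adventitial fibroblasts in place of alveolar ones it was 1.40 (edgeR adjusted p = 0.0112), where adventitial levels were 250, 205 and 256 CPM under vehicle and 113, 493 and 190 CPM under BIBO3304. Without vehicle 1 the difference from alveolar fibroblasts was 1.19 and its edgeR adjusted p 0.0752; without any other vehicle or BIBO3304 library it was 0.0473 or less.

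Creb5, a CREB-family transcription factor, had the smallest adjusted p of the genes named for BIBO3304. It ran from 261 to 583 CPM under vehicle and from 568 to 871 CPM under BIBO3304 in peribronchial fibroblasts, which overlap, and from 25.3 to 40.0 and 13.7 to 17.2 CPM in alveolar fibroblasts, where the order was opposite (1.75 ± 0.321, edgeR adjusted p = 0.000546; 0.0619 without vehicle 2). Nkain2 ran from 7.88 to 27.6 and from 83.3 to 218 CPM here and from 3.47 to 6.21 and 1.44 to 2.68 CPM in alveolar fibroblasts (3.82 ± 0.824, edgeR adjusted p = 0.0059). Tafa1, a secreted chemokine-like protein, went the other way, from 49.7 to 94.6 CPM under vehicle and from 10.4 to 20.8 CPM under BIBO3304, against 11.7 to 24.9 and 27.4 to 50.1 CPM in alveolar fibroblasts (-3.19 ± 0.662, edgeR adjusted p = 0.00422; 0.192 without BIBO3304 2). The glucose transporter Slc2a1 ran from 0 to 15.8 and from 29.8 to 202 CPM here, and from 53.1 to 80.0 and 60.2 to 74.3 CPM in alveolar fibroblasts (3.22 ± 0.752, edgeR adjusted p = 0.0168). Counts in peribronchial fibroblasts were low for both, with 3 transcripts under vehicle and 64 under BIBO3304 for Slc2a1, and 25 and 14 for Tafa1. Without single libraries the count of 26 was 15 (vehicle 1), 7 (vehicle 2), 17 (vehicle 3), 16 (BIBO3304 1), 8 (BIBO3304 2) and 14 (BIBO3304 3).

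**Figure D5:**
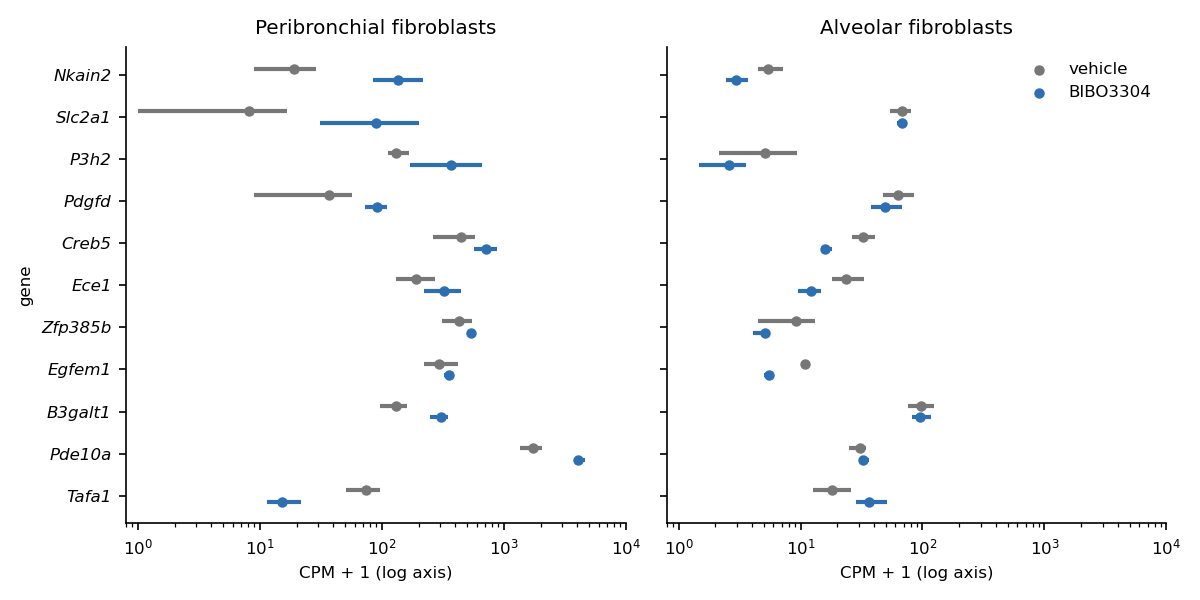
Genes named for a BIBO3304 change (without PDAC cells) that differs between peribronchial (left) and alveolar fibroblasts (right); points are group means and bars run from the lowest to the highest of 3 samples, CPM + 1 on a log axis. Nkain2, B3galt1, Pde10a and Slc2a1 are separated by treatment on the left and not higher under BIBO3304 on the right beyond the spread of samples. On the right Nkain2 is lower under BIBO3304. By their means Creb5, Ece1, Zfp385b, Egfem1, P3h2 and Pdgfd are higher under BIBO3304 on the left and lower on the right. Tafa1 is lower on the left and higher on the right.

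For 6-OHDA with PDAC cells the difference passed in 4 genes (0.0404%; 501 at an unadjusted p under 0.05), all more positive in peribronchial fibroblasts. Csmd1, a large complement-regulating membrane protein, ran from 3016 to 6907 CPM under vehicle and from 8576 to 9357 CPM under 6-OHDA, and was at 34.2 to 68.9 and 15.8 to 44.8 CPM in alveolar fibroblasts (1.67 ± 0.323, edgeR adjusted p = 0.00146). Igfbp3, which binds insulin-like growth factors, ran from 247 to 577 and from 799 to 884 CPM (1.76 ± 0.365, edgeR adjusted p = 0.00496). In alveolar fibroblasts it was lower under 6-OHDA, at 99.9 to 136 and 55.7 to 80.0 CPM. Txndc11 and Crispld2 were the others, with differences of 2.11 and 1.43. Txndc11 ran from 101 to 147 and 215 to 611 CPM here, and from 214 to 414 and 223 to 228 CPM in alveolar fibroblasts. Crispld2 overlapped here (594 to 1514 and 1194 to 2338 CPM) and was lower under 6-OHDA in alveolar fibroblasts (360 to 551 and 226 to 327 CPM). For BIBO3304 with PDAC cells 2 genes passed (0.0202%, with 423 at an unadjusted p under 0.05), Rdh10 and Slc12a2. Each was carried by 1 of the 2 BIBO3304 samples as described above. Rdh10 had an edgeR adjusted p of 0.00142 here and of 0.413 in the test within the type. PDAC cells against none under vehicle gave 1 gene (0.0101%; 425 at an unadjusted p under 0.05), a predicted gene under 20 CPM, and 6-OHDA without PDAC cells gave 0 by edgeR (0%; 465 at an unadjusted p under 0.05), a test for which DESeq2 was not run.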

How the data were processed

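Raw transcript counts per gene and cell, as the authors deposited them, were read with the deposited table of cell types, samples, treatment and seeding state. The 16 GEO entries are sublibraries that each split the same pool of cells, so samples came from that table. Its percent of mitochondrially encoded transcripts was deposited per cell and used only to describe cells, and its labels in words are other columns of the deposited table. Per the submitters' processing notes, Seurat 5.3.0 and build mm39 were used; the aligner is not given in the sources used here.

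Counts were summed per sample (at least 20 cells), filtered with filterByExpr, scaled by TMM and fitted over all 6 groups with edgeR 4.0.16 in R 4.3.3, which had 9 residual degrees of freedom and was tested on simulated data. P-values were adjusted over all genes by the Benjamini-Hochberg method at 0.05. DESeq2 1.42.0 was the alternative. Cell numbers were also scaled by TMM and fitted over all 6 groups with edgeR, over 22 types. That fit had no filter, no minimum number of cells and no trend of the spread with abundance. Differences between types used 1 model over both types' sums.

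The members and lists were chosen with earlier results of these data known. Named genes are the largest past the threshold at 20 CPM or more, or, where fewer than 8 passed, the 10 with the smallest p, of which the text gives a part picked after their values were seen. Promoters come from RefSeq GRCm38.p6.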

Additional observations from a re-analysis of the deposited data

Results flagged for a closer look

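The change differed between peribronchial and alveolar fibroblasts by the edgeR test of the difference itself in 26 genes for BIBO3304 without PDAC cells, 4 for 6-OHDA with PDAC cells, 2 for BIBO3304 with PDAC cells and 1 for PDAC cells against none. The 17 of these that the text names are given here by the log2 difference between the changes.

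For BIBO3304 without PDAC cells the difference was 3.82 for Nkain2, 3.22 for Slc2a1, 2.49 for P3h2, 2.13 for Pdgfd, 1.75 for Creb5, 1.68 for Ece1, 1.60 for Zfp385b, 1.57 for Egfem1, 1.48 for B3galt1, 1.31 for Pde10a and -3.19 for Tafa1. In peribronchial fibroblasts vehicle and BIBO3304 overlapped for Ece1 (130 to 271 and 220 to 441 CPM), Zfp385b (307 to 541 and 500 to 561) and Egfem1 (221 to 418 and 321 to 389). Their alveolar means were low and fell under BIBO3304, from 22.5 to 11.2, 8.22 to 4.11 and 9.84 to 4.48 CPM. This fall is part of their differences, and the part of RNA from other cells in it was not tested. P3h2, a prolyl hydroxylase, ran from 110.3 to 166 CPM under vehicle and from 170 to 655 CPM under BIBO3304, and had an edgeR adjusted p of 0.552 without vehicle 2 and 0.943 without BIBO3304 2. Slc2a1 did not pass without vehicle 1 (0.463), vehicle 2 (0.0619) or BIBO3304 1 (0.704). Nkain2 did not pass without vehicle 2 (0.0619), vehicle 3 (0.0543), BIBO3304 1 (0.0889) or BIBO3304 2 (0.0579). B3galt1 did not pass without vehicle 1 (0.295), vehicle 2 (0.0619), vehicle 3 (0.171), BIBO3304 2 (0.388) or BIBO3304 3 (0.0535).

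Ece1, the endothelin-converting enzyme, did not pass without vehicle 2 (0.362), vehicle 3 (0.0559), BIBO3304 1 (0.102) or BIBO3304 2 (0.226). Pdgfd, a platelet-derived growth factor, passed only without vehicle 2, and did not pass without vehicle 1 (0.382), vehicle 3 (0.371), BIBO3304 1 (0.0579), BIBO3304 2 (0.337) or BIBO3304 3 (0.0636). Zfp385b passed only without vehicle 2, with 0.0654, 0.809, 0.0649, 0.11 and 0.174 without vehicle 1, vehicle 3, BIBO3304 1, BIBO3304 2 and BIBO3304 3. Egfem1 passed only without vehicle 3, with 0.603, 0.18, 0.0889, 0.454 and 0.0979 without vehicle 1, vehicle 2, BIBO3304 1, BIBO3304 2 and BIBO3304 3.

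For 6-OHDA with PDAC cells the difference was 1.67 for Csmd1, 2.11 for Txndc11, 1.76 for Igfbp3 and 1.43 for Crispld2. Csmd1 had a difference of 0.63 without vehicle-PDAC 2 and 0.84 without 6-OHDA-PDAC 2 (edgeR adjusted p = 1 for both), and of 2.83 and 2.66 without vehicle-PDAC 1 and 6-OHDA-PDAC 1. Igfbp3 had 1.06 without vehicle-PDAC 2 (edgeR adjusted p = 1), 1.55 without 6-OHDA-PDAC 1 (0.285) and 2.73 without vehicle-PDAC 1. Txndc11 had 1.92 without vehicle-PDAC 1 (0.184) and 1.07 without 6-OHDA-PDAC 2 (1), and Crispld2 had 1.14 without vehicle-PDAC 2 (0.895) and 1.11 without 6-OHDA-PDAC 2 (1).

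For BIBO3304 with PDAC cells the difference was 3.74 for Rdh10 and 3.50 for Slc12a2. Rdh10 had -0.39 without BIBO3304-PDAC 1 and an edgeR adjusted p of 0.0679 without vehicle-PDAC 1. Slc12a2 had 1.33 without BIBO3304-PDAC 2, with an edgeR adjusted p of 1, and 2.96 without vehicle-PDAC 1 (0.479).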

How the results depend on the processing

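The 15 samples held 34 to 121 cells of the type, and in simulated counts most 2-fold changes were missed in both BIBO3304 comparisons. Counts of genes called in peribronchial fibroblasts, in the order 6-OHDA, BIBO3304, 6-OHDA with PDAC cells, BIBO3304 with PDAC cells and PDAC cells against none, were 2, 18, 3, 4 and 5 with no gene filter, which tests more genes, and 5 for the BIBO3304 interaction. With only the compared groups fitted, 2 (6-OHDA), 8 (BIBO3304) and 2 (BIBO3304 interaction) passed, and DESeq2 called 1 for BIBO3304. Leaving out 1 library gave 0 to 4 for BIBO3304, 0 to 7 for 6-OHDA with PDAC cells, 0 to 2 for BIBO3304 with PDAC cells, 0 to 3 for PDAC cells and 0 to 16 for the BIBO3304 interaction (16 without vehicle-PDAC 2). Genes that differed from alveolar fibroblasts under BIBO3304 numbered 17 with RLE size factors, 9 with no filter and 3 against adventitial fibroblasts, and 7 to 17 with 1 library left out. With PDAC cells, BIBO3304 gave 6 with RLE, 5 with no filter, 4 at a minimum of 50 cells, 1 against adventitial fibroblasts and 2 to 4 with 1 library left out. 6-OHDA with PDAC cells gave 1 against adventitial fibroblasts and 1 to 6 with 1 library left out, 6-OHDA without PDAC cells 0 to 1, and PDAC cells against none 3 and 0 to 5.

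No share passed the test. The log2 change of the share of all cells turned sign for PDAC cells against none with RLE (0.0347), no scaling (0.0319) and no alveolar macrophages in the denominator (0.19), for 6-OHDA with no scaling (0.0622), and for BIBO3304 with PDAC cells without macrophages (-0.16). With 1 library left out it ran from -0.47 to 0.11 (6-OHDA), -0.42 to 0.46 (PDAC cells), -0.37 to 0.36 (BIBO3304 with PDAC cells) and -0.87 to 0.0768 (BIBO3304 interaction). Differences in the percent of fibroblasts were -1.08 (6-OHDA with PDAC cells) and -0.0787 (BIBO3304 with PDAC cells) over alveolar fibroblasts alone, and with 1 library left out -1.004 to 0.24 (6-OHDA), -0.66 to 1.78 (6-OHDA with PDAC cells), -0.25 to 1.21 (BIBO3304 with PDAC cells) and -0.0249 to 1.22 (PDAC cells). The difference of Mapk4 was -0.0882 against adventitial fibroblasts, and Rdh10 ran from -0.78 (without BIBO3304-PDAC 1) to 3.94, and its difference from -0.39 to 4.89. The causes were not tested. Samples that share a number correlated at -0.03 to 0.11 in their deviations from the group mean. In 2 against 2 samples both numbers must give the same value (-0.0046 and 0.033), so this check of pairing is weak. The samples were fitted as unpaired, and the replicate block changed no count of calls (Pdlim1: 2.95, edgeR adjusted p = 0.0193).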
